A study of Mus musculus with 20 samples.

Results

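Chemokines are small secreted proteins that direct the migration of leukocytes, and they act through G protein-coupled receptors on the cells they attract. Of the 48440 genes counted in mouse liver, 56 carry a symbol of the chemokine ligand families Ccl, Cxcl, Xcl and Cx3cl or of the receptor families Ccr, Cxcr, Xcr and Cx3cr, and these 56 genes are described here. The rule reads the symbol alone and no measured value. The 38 ligands comprise 23 CC, 13 CXC, 1 XC and 1 CX3C chemokines, and the 18 receptors comprise 10 CC, 6 CXC, 1 XC and 1 CX3C receptors. The symbols leave out chemokines that bear other names, such as Pf4 and Ppbp, and the atypical receptors, which are given with the rest of the pathway.

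Whole livers of 20 wild-type female C57BL/6 mice (C57BL/6J in the study's methods), 8 weeks old when the experiment began, were profiled by paired-end RNA sequencing, with 5 mice in each of 4 groups. The study asked how neutralization of acyl-CoA-binding protein (ACBP, also called diazepam-binding inhibitor) alters the effects of glucocorticoid excess, a model of Cushing's syndrome. The mice drank water with corticosterone (CORT) at 100 µg per ml, or with its ethanol vehicle, for 5 weeks. They also received intraperitoneal injections at 5 mg per kg of either a monoclonal antibody against ACBP (αACBP, clone 7G4a) or an IgG2a isotype antibody, so that every mouse received an antibody. The vehicle-treated groups are called Isotype + Vehicle and αACBP + Vehicle, and the corticosterone-treated groups Isotype + CORT and αACBP + CORT. ACBP was neutralized by antibody and not deleted, and the livers were bulk tissue, in which fewer cells of a type and less RNA per cell cannot be told apart.

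Chemokines are commonly sorted by the receptor they act on. CXCL9, CXCL10 and CXCL11 are induced by interferons and attract activated T cells and natural killer (NK) cells through CXCR3, whereas CXCL13 attracts B cells through CXCR5 and CXCL12 retains many cell types through CXCR4. CCL5 attracts T cells and macrophages, CCL2 draws monocytes from the blood through CCR2, and CCL19 and CCL21 guide dendritic cells and naive T cells through CCR7. In the liver, Kupffer cells, sinusoidal endothelium and hepatocytes can all release chemokines, and glucocorticoids are known to lower the transcription of many inflammatory chemokine genes.

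The livers had between 14934926 and 20299999 counts on genes (median 16996358), so that 3 counts, taken as the detection limit for a single liver, equal 0.145 to 0.205 CPM. CPM are counts scaled to a library of 1000000, with library sizes scaled with edgeR's TMM method, whose factor was 1.29 in αACBP + Vehicle replicate 5, above that of the other livers. Hepatocyte marker transcripts dominated in every liver, with sums from 36400 to 136000 CPM over 5 genes such as Alb. At these depths 28 of the 56 genes passed the filter on low counts (0.588 CPM in at least 5 livers), namely 18 ligands and 10 receptors, out of 16071 genes that passed in all. For 26 of the 28 the livers at that limit lay in all 4 groups, and for Ccl3 and Cxcl14 they lay in 3. The other 28 genes were too low to test, and 7 of them (Ccl1, Ccl20, Ccl21b, Ccl26, Cxcl15, Cxcl17 and Cxcl3) had no count in any liver.

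Levels of the 28 tested genes were compared per length of the canonical transcript, as CPM per kb averaged over the 20 livers. Cxcl12, the homeostatic ligand of CXCR4, led the ligands at 44.3 CPM per kb, followed by Ccl27a, a CCR10 ligand best known from skin, at 40.1 and the CCR1 ligand Ccl9 at 19.6. The neutrophil attractant Cxcl1 stood at 15.7, the CCR9 ligand Ccl25 at 9.73 and Cxcl11 at 5.98 CPM per kb. Ccl5 (5.33), Cxcl9 (3.97), Cxcl13 (3.22), Ccl6 (3.04), Cxcl16 (3.03) and Cxcl10 (2.44 CPM per kb) formed a middle range, and the remaining tested ligands lay between 0.167 (Cx3cl1) and 1.66 (Ccl24). The tested receptors were all low: Cxcr5 stood highest at 1.51 CPM per kb, before Ccr7 (0.678) and Cxcr4 (0.581), and Ccr9 closed the order of tested receptors at 0.0678. Exons of Ccl27a, Cxcl11 and Cxcl16 share 49.6%, 41.7% and 90.7% of their bases with genes on the opposite strand. The shares were 35.6% for Ccl3, 24.1% for Xcr1, 12.9% for Cx3cl1, 12.1% for Cxcl10 and 10.1% for Ccl25. They were 6.7% for Ccr7 and 4.48% for Cxcr5. The strand setting of the counting is not known, so the levels of these genes may include reads of those neighbours.

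**Figure D1:**
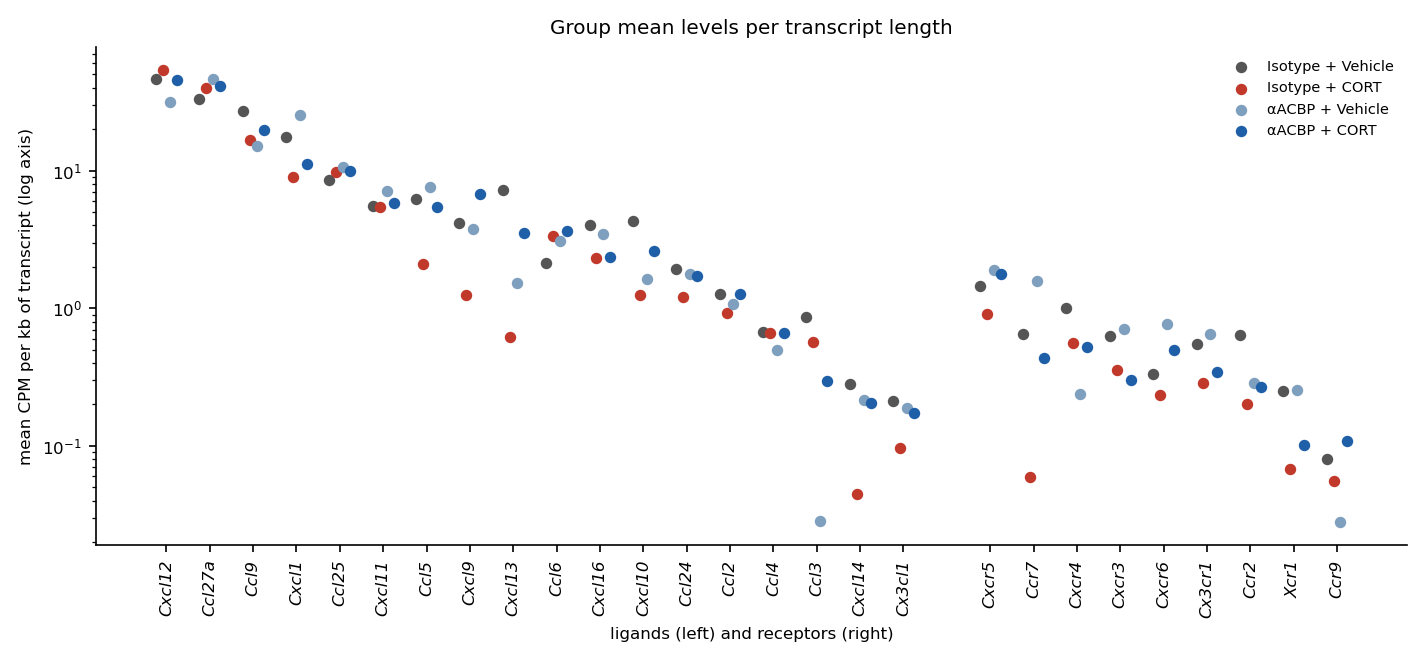
Group mean level (5 livers each) of 27 tested chemokine and chemokine receptor genes, in CPM per kb of the canonical transcript on a log axis, with 1 point per group. Averaged over all livers, the ligands span from Cxcl12 at 44.3 to Cx3cl1 at 0.167 CPM per kb, and the highest receptor, Cxcr5, reaches 1.51 CPM per kb.

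Under the isotype antibody, CORT-treated livers had a lower fitted level than vehicle-treated livers for 24 of the 28 tested genes, comprising 14 of 18 ligands and 10 of 10 receptors, whereas 49.8% of all tested genes were lower. These shares depended on the filter. With every gene of at least 1 count in any liver fitted, 21 of 31 ligands and 11 of 18 receptors were lower. The median log2 fold change was -0.80 over the 28 genes (-0.68 for ligands and -0.89 for receptors), beside 0.0022 over all tested genes. The median over the members was -1.23 in limma voom. The exceptions with higher fitted levels were Ccl27a, Cxcl12, Ccl6 and Ccl25. No member passed the limits of an adjusted p of 0.05 and an absolute log2 fold change of 1 in edgeR's quasi-likelihood test, which 1.94% of all tested genes passed, and the lowest adjusted p of a member was 0.0912, for Cxcl13. At an unadjusted p of 0.05 there were 9 members, all lower, beside 1263 lower and 1239 higher of the 16071 genes tested. Of the 9 members 7 also passed the fold limit, beside 4.09% of all genes that were lower by the same rule. Among these were the ligands Cxcl13, Cxcl9, Cxcl10 and Ccl5 and the receptors Ccr7 and Ccr2. By the other tools, DESeq2's Wald test called 3 members (Cxcl9, Cxcl10 and Cxcl13), beside 527 of the 16071 genes tested. In limma voom 1 member was called (Cxcl9), beside 242 of the 16071 genes. Leaving out Isotype + CORT replicate 2 gave 1 member called (Cxcl9), beside 278 of 16456 genes. Leaving out Isotype + CORT replicate 3 gave 3 (Cxcl9, Ccl5 and Ccr7), beside 421 of 16462 genes.

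Among CORT-treated mice, the αACBP antibody went with higher fitted levels than the isotype antibody for 24 of the 28 genes (16 of 18 ligands and 8 of 10 receptors), beside 51.0% of all tested genes. The median log2 fold change was 0.44 over the members, 0.28 for ligands and 0.74 for receptors, and 0.0106 over all genes. The median over the members was 0.19 without Isotype + CORT replicate 1, 0.09 over the 9 members with at least 10 counts in every liver, 0.93 with a replicate block and 1.27 in limma voom. Cxcl9 was the 1 member that passed both limits, rising by a log2 fold change of 2.43 ± 0.57 (SE), or 5.41-fold, at an adjusted p of 0.0453 (edgeR), where 0.597% of all genes passed. At the unadjusted p with the fold limit, 4 members were higher, among them Cxcl9, Cxcl13 and Ccr7, beside 2.59% of all genes. The log2 fold change of Cxcl9 stayed between 2.12 and 2.84 when 1 liver was left out, but its call did not: it was lost when Isotype + CORT replicate 1 or 4, or any 1 of αACBP + CORT replicates 1 to 5, was left out, with adjusted p from 0.0703 to 0.124. It stood without Isotype + CORT replicate 2, 3 or 5, and without replicate 3 Ccr7 was called as well. Fitted on the 2 groups alone its adjusted p was 0.212. Both of these comparisons use the Isotype + CORT livers, so a low value there moves both, in opposite directions.

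**Figure D2:**
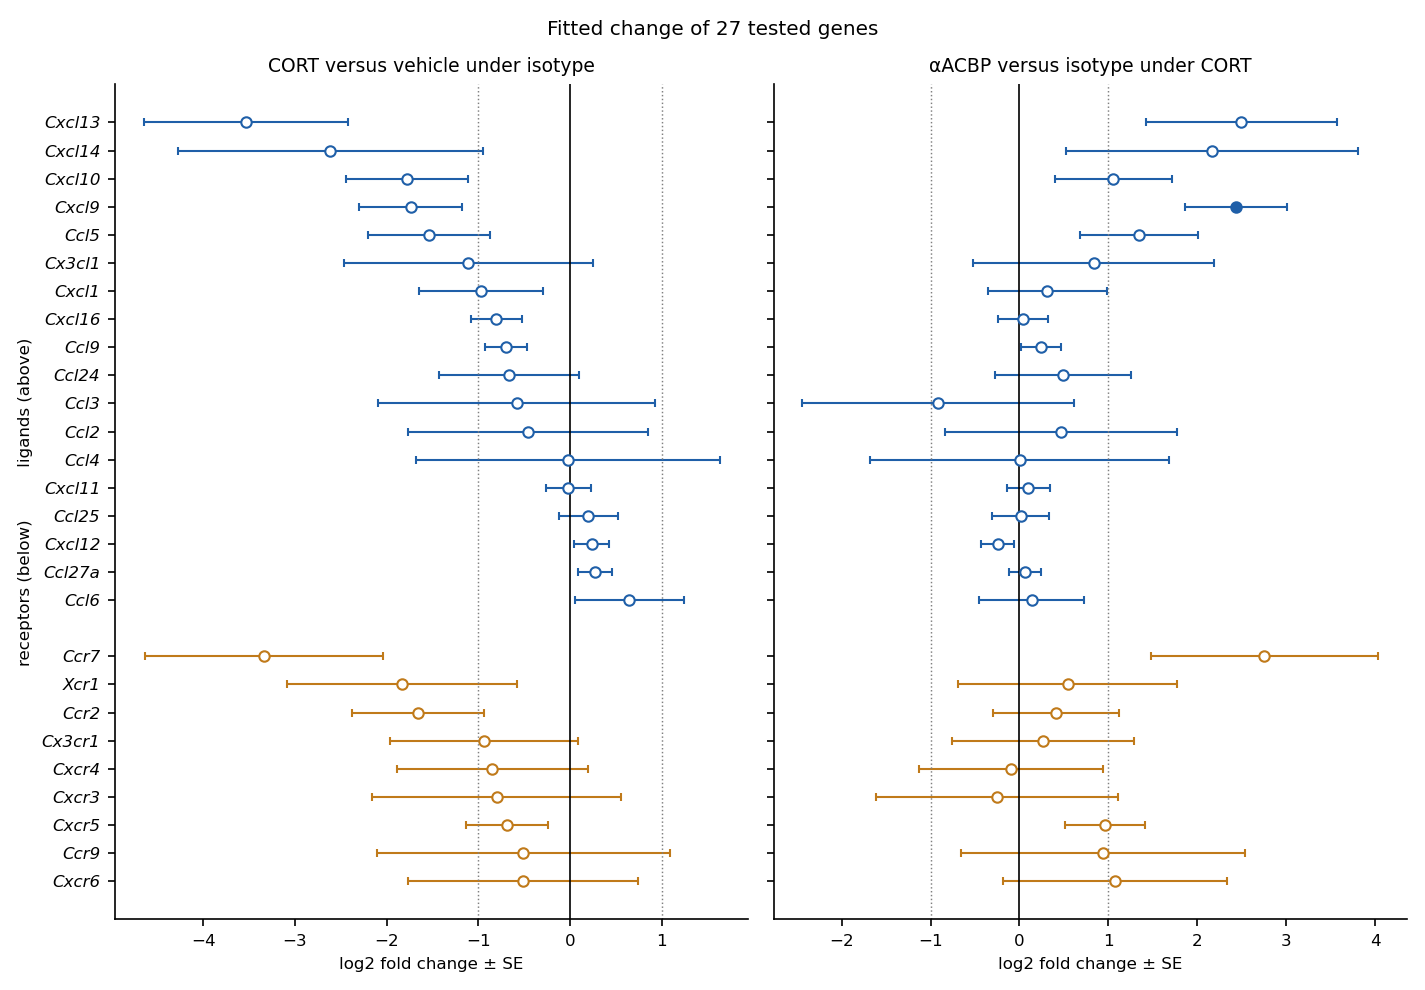
Log2 fold change with its standard error for 18 ligands and 9 receptors, for CORT against vehicle under the isotype antibody and for αACBP against isotype under CORT, with a filled point for a called gene and dotted lines at the fold limit. In the first comparison 23 of these 27 genes lie below 0, including 9 of 9 receptors, and in the second 23 lie above 0, with Cxcl9 at 2.43.

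The number of genes detected per liver overlapped between groups. With 3 counts or more taken as detected, Isotype + Vehicle livers held 17 to 22 of the 38 ligands and 8 to 11 of the 18 receptors. Isotype + CORT livers held 12 to 19 ligands and 3 to 11 receptors, and 2 livers carried the lower end of the ligands: replicates 1 and 2 held 12 each. The αACBP + Vehicle livers held 12 to 18 ligands and 7 to 11 receptors, and the αACBP + CORT livers 18 to 21 ligands and 10 to 14 receptors. Summed over the 18 receptors, the level was 16 to 31.7 CPM in Isotype + Vehicle and 5.88 to 16.2 CPM in Isotype + CORT livers, which overlapped slightly. It was 14.6 to 26.5 CPM in αACBP + Vehicle and 15.5 to 23.4 CPM in αACBP + CORT livers. Summed over the 38 ligands, the level was 365 to 558 CPM in Isotype + Vehicle and 384 to 562 CPM in Isotype + CORT livers, beside 319 to 438 CPM in αACBP + Vehicle and 380 to 505 CPM in αACBP + CORT livers, so that these sums overlapped. For the ligands without Cxcl12, a split made after the values were seen, the ranges were 176 to 241, 139 to 159, 157 to 257 and 165 to 198 CPM in the same order. By this sum the Isotype + CORT livers lay below every Isotype + Vehicle and every αACBP + CORT liver.

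Cxcl9, Cxcl10 and Cxcl13 lie on chromosome 5. The genes of Cxcl9 (92469206 to 92475945), Cxcl10 (92494497 to 92496748) and Cxcl11 (92507403 to 92513344) follow one another on the minus strand, and Cxcl13 lies on the plus strand at 96104810 to 96108927 (GRCm39, GENCODE M39). The 250 bases before the RefSeq start of Cxcl9, Cxcl10 and Cxcl13 are shown here. Cxcl9 was the called member, and Cxcl10 and Cxcl13 were the CXC ligands with the largest fitted decreases past the unadjusted limits. The windows come from RefSeq's promoter table of GRCm38.p6, run 5′ to 3′ on the gene's own strand, and each was found once on chromosome 5 of GRCm39. Capitals mark matches, on either strand, to 4 motifs: GAAANNGAA, the core of interferon response elements, TTCNNNGAA, the gamma-activated site, GGANNTTCC, a kappaB form, and AGAACA, a half-site of the glucocorticoid response element.

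Cxcl9, chr5:92475939-92476188, minus strand: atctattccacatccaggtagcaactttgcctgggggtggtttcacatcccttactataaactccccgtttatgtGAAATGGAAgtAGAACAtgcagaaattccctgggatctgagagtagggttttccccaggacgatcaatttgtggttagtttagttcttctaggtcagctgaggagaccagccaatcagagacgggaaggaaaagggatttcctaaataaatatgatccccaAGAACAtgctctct
Cxcl10, chr5:92496749-92496998, minus strand: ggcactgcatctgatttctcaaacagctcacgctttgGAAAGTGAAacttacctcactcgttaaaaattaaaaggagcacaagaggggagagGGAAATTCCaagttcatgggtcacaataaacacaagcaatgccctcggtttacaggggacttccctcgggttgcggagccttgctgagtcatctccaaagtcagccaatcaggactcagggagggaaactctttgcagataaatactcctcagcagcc
Cxcl13, chr5:96104548-96104797, plus strand: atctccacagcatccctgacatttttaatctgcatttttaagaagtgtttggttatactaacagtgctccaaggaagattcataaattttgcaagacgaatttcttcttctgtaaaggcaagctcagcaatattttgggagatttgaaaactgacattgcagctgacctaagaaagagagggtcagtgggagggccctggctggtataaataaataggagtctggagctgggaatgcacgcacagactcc

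In the Cxcl9 window the interferon element begins 175 bases before the start and the glucocorticoid half-sites begin 164 and 14 bases before it. The Cxcl10 window holds an interferon element at 213 bases and a kappaB form at 158 bases before the start. That kappaB form matches on both strands at the same place. The Cxcl13 window holds none of the 4 motifs. No match overlapped a match of a different motif in these windows. A promoter window was held for 41 of the 56 genes (27 ligands and 14 receptors), and among these GAAANNGAA occurred in 8, TTCNNNGAA in 3, GGANNTTCC in 7 and AGAACA in 7. The same letters occurred in 7.16%, 7.18%, 3.56% and 16.2% of all 27018 promoter windows of that length. The kappaB form lay in 6 ligand windows besides 1 receptor window, among them those of the neutrophil attractants Cxcl1 (70 bases before the start), Cxcl2 (96) and Cxcl3 (72). These are matches of letters in a window and say nothing of binding.

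Cxcl9, which macrophages and endothelium make in response to interferon-γ, was the called member. Its level was 12.3, 14.9, 11.6, 10.9 and 10.4 CPM in the Isotype + Vehicle livers (mean 12.0 ± 1.74 SD, n = 5) and 2.19, 0.05, 7.05, 1.69 and 7.02 CPM in the Isotype + CORT livers (3.6 ± 3.23 SD, n = 5). In the αACBP + CORT livers it was 26.8, 20.7, 20.8, 16.1 and 13 CPM (19.5 ± 5.23 SD, n = 5). The αACBP + Vehicle livers had 9.32, 8.13, 15.3, 16.1 and 5.84 CPM (10.9 ± 4.53 SD, n = 5). Every Isotype + CORT liver thus lay below every Isotype + Vehicle and every αACBP + CORT liver, although the Isotype + CORT livers spread widely, with replicate 2 close to 0. The log2 fold change with CORT under isotype was -1.74 ± 0.56 (SE), with an adjusted p of 0.102 (edgeR) and a two-sided exact permutation p of 0.00794, the smallest that 5 against 5 livers allow. The exact permutation p of the rise under αACBP in CORT-treated mice was also 0.00794. Groups without overlap were found for 3 members, Cxcl9 and Ccr2 among them, and 3.02% of all genes in the first of these comparisons, in the lower direction, and for 1 member (Cxcl9) and 1.91% of all genes in the second, in the higher direction.

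Cxcl10, a further CXCR3 ligand that also responds to type I interferon, was measured at 5.36, 5.26, 3.2, 4.32 and 5.57 CPM in Isotype + Vehicle and 1.09, 0, 3.2, 0.717 and 1.87 CPM in Isotype + CORT livers. The values were 1.23, 2.19, 0.724, 2.86 and 1.93 CPM in αACBP + Vehicle and 2.28, 2.32, 3.56, 2.01 and 4.16 CPM in αACBP + CORT livers. The Isotype + Vehicle livers had the highest mean, and every αACBP + Vehicle liver lay below them. Both CORT-treated groups overlapped the Isotype + Vehicle livers, and the 3 groups other than Isotype + Vehicle overlapped each other. With CORT under isotype the log2 fold change was -1.78 ± 0.67 (SE; adjusted p = 0.151, edgeR; exact permutation p = 0.0159), and for αACBP against isotype under CORT it was 1.05 ± 0.66 (adjusted p = 0.568). Cxcl11, the neighbouring gene, is known to carry a null allele in C57BL/6 mice. Its transcript level ranged from 15.3 to 49.1 CPM over all livers, and its groups overlapped, with log2 fold changes of -0.02 ± 0.24 and 0.10 ± 0.24 (SE) in the 2 comparisons (adjusted p = 0.984 and 0.948). The receptor Cxcr3 was near its detection limit, at 0 in 3 of 5 Isotype + CORT livers. Replicate 3 of that group reached 2.88 CPM, above every Isotype + Vehicle liver (0 to 2.08 CPM). The means of Cxcr3 were 1.08 CPM in Isotype + Vehicle, 0.615 CPM in Isotype + CORT, 1.22 CPM in αACBP + Vehicle and 0.519 CPM in αACBP + CORT livers.

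**Figure D3:**
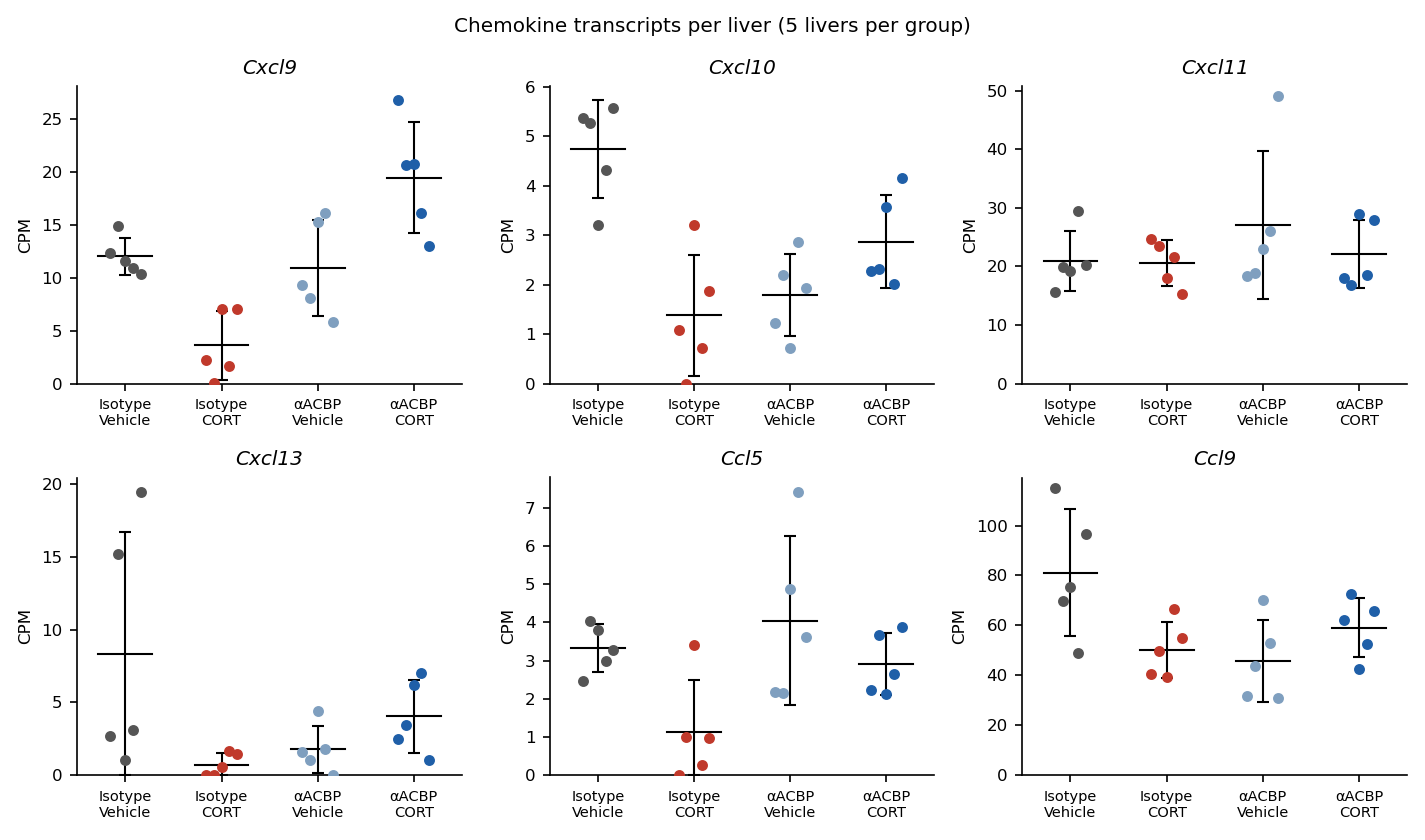
Level of ligand transcripts in each liver, in CPM, by group, with 1 point per liver, the group mean as a line and the SD as a whisker (its lower end cut at 0). For Cxcl9 the 5 Isotype + CORT livers lie between 0.05 and 7.05 CPM, below all Isotype + Vehicle livers (10.4 to 14.9 CPM) and all αACBP + CORT livers (13 to 26.8 CPM).

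Cxcl13, which places B cells in follicles, had the largest fitted decrease of the 28 with CORT. Its level was 2.71, 15.2, 1.01, 3.07 and 19.5 CPM in Isotype + Vehicle and 0, 0, 0.534, 1.63 and 1.42 CPM in Isotype + CORT livers (log2 fold change -3.54 ± 1.11 SE, adjusted p = 0.0912, edgeR; exact permutation p = 0.0238). Replicates 2 and 5 of Isotype + Vehicle stood well above the rest, and replicate 3 of that group lay within the Isotype + CORT range. The αACBP + CORT livers had 2.48, 3.41, 6.2, 7.03 and 1.03 CPM, most of them above the Isotype + CORT livers (log2 fold change 2.50 ± 1.08 SE; adjusted p = 0.337; exact permutation p = 0.0238). The αACBP + Vehicle livers held 1.56, 1.02, 4.4, 1.82 and 0 CPM. Its receptor Cxcr5, carried by B cells and follicular helper T cells, was the highest receptor per length. Cxcr5 measured 3.55, 2.63, 2.33, 5.63 and 5.09 CPM in Isotype + Vehicle and 1.57, 3.45, 2.62, 2.08 and 2.19 CPM in Isotype + CORT livers. The values were 6.14, 8.93, 5.49, 2.97 and 1.35 CPM in αACBP + Vehicle and 4.77, 2.38, 4.48, 5.02 and 6.64 CPM in αACBP + CORT livers. The groups overlapped, with log2 fold changes of -0.69 ± 0.45 (SE; adjusted p = 0.521) for CORT under isotype and 0.96 ± 0.45 (adjusted p = 0.372; exact permutation p = 0.0238) for αACBP under CORT. B cell marker sums over 4 genes, such as Ms4a1, Cd79a and Cd79b, were 12.8 to 23.8 CPM in Isotype + Vehicle and 1.16 to 10 CPM in Isotype + CORT livers. They were 9.9 to 24.8 CPM in αACBP + Vehicle and 2.64 to 14.7 CPM in αACBP + CORT livers, and their part in the levels of Cxcl13 and Cxcr5 was not tested. None of the 4 genes was called in either comparison.

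Ccl5, a product of T cells, NK cells and activated macrophages, was at 2.47, 4.04, 3.8, 3.0 and 3.29 CPM in Isotype + Vehicle and at 0, 1.0, 3.42, 0.261 and 0.966 CPM in Isotype + CORT livers. Replicate 3 of the CORT group was within the vehicle range and the other 4 lay below it (log2 fold change -1.54 ± 0.67 SE, adjusted p = 0.234, edgeR; exact permutation p = 0.0317). The αACBP + CORT livers were at 2.22, 3.67, 2.12, 2.66 and 3.89 CPM (log2 fold change 1.35 ± 0.66 SE; adjusted p = 0.405; exact permutation p = 0.0317). The αACBP + Vehicle livers were at 2.18, 2.14, 4.88, 7.43 and 3.62 CPM. The ligands Ccl3 and Ccl4, which attract monocytes and T cells, were close to the detection limit, with group means of 0.022 to 0.674 CPM for Ccl3 and 0.343 to 0.462 CPM for Ccl4.

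Ccr2, the receptor that inflammatory monocytes use to leave the bone marrow, was at 2.11, 2.32, 1.72, 6.76 and 5.39 CPM in Isotype + Vehicle and at 0, 1.0, 1.71, 1.43 and 1.61 CPM in Isotype + CORT livers. The groups did not overlap, but by the narrowest of margins, and replicates 4 and 5 of the vehicle group lay far above the others (log2 fold change -1.66 ± 0.72 SE, adjusted p = 0.236, edgeR; exact permutation p = 0.00794). The αACBP + CORT livers, at 0.805, 1.74, 1.32, 1.54 and 2.27 CPM, and the αACBP + Vehicle livers, at 2.18, 0.91, 2.05, 1.38 and 1.69 CPM, overlapped the Isotype + CORT livers (log2 fold change 0.41 ± 0.71 SE for αACBP under CORT; adjusted p = 0.909). Its ligand Ccl2 had group means of 0.746 to 1.03 CPM. The related ligand Ccl7 was below the filter, with 0, 18, 0, 16 and 19 counts in the Isotype + Vehicle livers and 0, 4, 8, 0 and 5 counts in the αACBP + CORT livers. It had no count in any Isotype + CORT or αACBP + Vehicle liver. The monocyte markers Ly6c2, Ms4a4c and F13a1 together stayed at or below 2.81 CPM in every liver. The mean of F13a1 was highest in Isotype + CORT livers (0.529 CPM), beside 0.06 CPM in Isotype + Vehicle, 0 in αACBP + Vehicle and 0.194 CPM in αACBP + CORT livers.

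Ccr7, carried by migrating dendritic cells and naive T cells, was at 1.32, 1.71, 1.27, 1.94 and 0.24 CPM in Isotype + Vehicle and at 0, 0, 0.587, 0 and 0 CPM in Isotype + CORT livers (log2 fold change -3.34 ± 1.3 SE, adjusted p = 0.173, edgeR; exact permutation p = 0.0159). Of the Isotype + CORT livers, replicate 3 alone had Ccr7 counts. Without it the remaining livers of that group were all at 0 and Ccr7 was called in both comparisons (adjusted p = 0.0183 for CORT under isotype and 0.0422 for αACBP under CORT), with fitted folds that give no bound. The αACBP + CORT livers had 1.34, 0, 0.287, 0.473 and 2.21 CPM (log2 fold change 2.76 ± 1.28 SE; adjusted p = 0.367). Those of αACBP + Vehicle had 5.41, 0.749, 0.543, 0.22 and 8.63 CPM, with replicates 1 and 5 far above the other 3. The CCR7 ligands Ccl19, Ccl21a and Ccl21b were at or near 0 counts throughout. Xcr1, the receptor of cross-presenting dendritic cells, was at 1.38, 1.41, 0.507, 0.688 and 1.56 CPM in Isotype + Vehicle and at 0, 0.75, 0, 0 and 0.773 CPM in Isotype + CORT livers (log2 fold change -1.83 ± 1.25 SE; adjusted p = 0.549). It was at 0.725, 0, 1.45, 2.15 and 1.35 CPM in αACBP + Vehicle and 0.336, 0.772, 0.23, 0.532 and 0.378 CPM in αACBP + CORT livers (log2 fold change 0.54 ± 1.23 SE for αACBP under CORT; adjusted p = 0.943). Dendritic cell markers (Flt3, Clec9a, Zbtb46, Siglech and Itgax) summed to 24.3 to 41.1, 18.7 to 31.8, 27.6 to 57.5 and 21.4 to 33.4 CPM, in the group order used so far. None of the 5 was called in either comparison, and their part in the receptor levels was not tested.

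**Figure D4:**
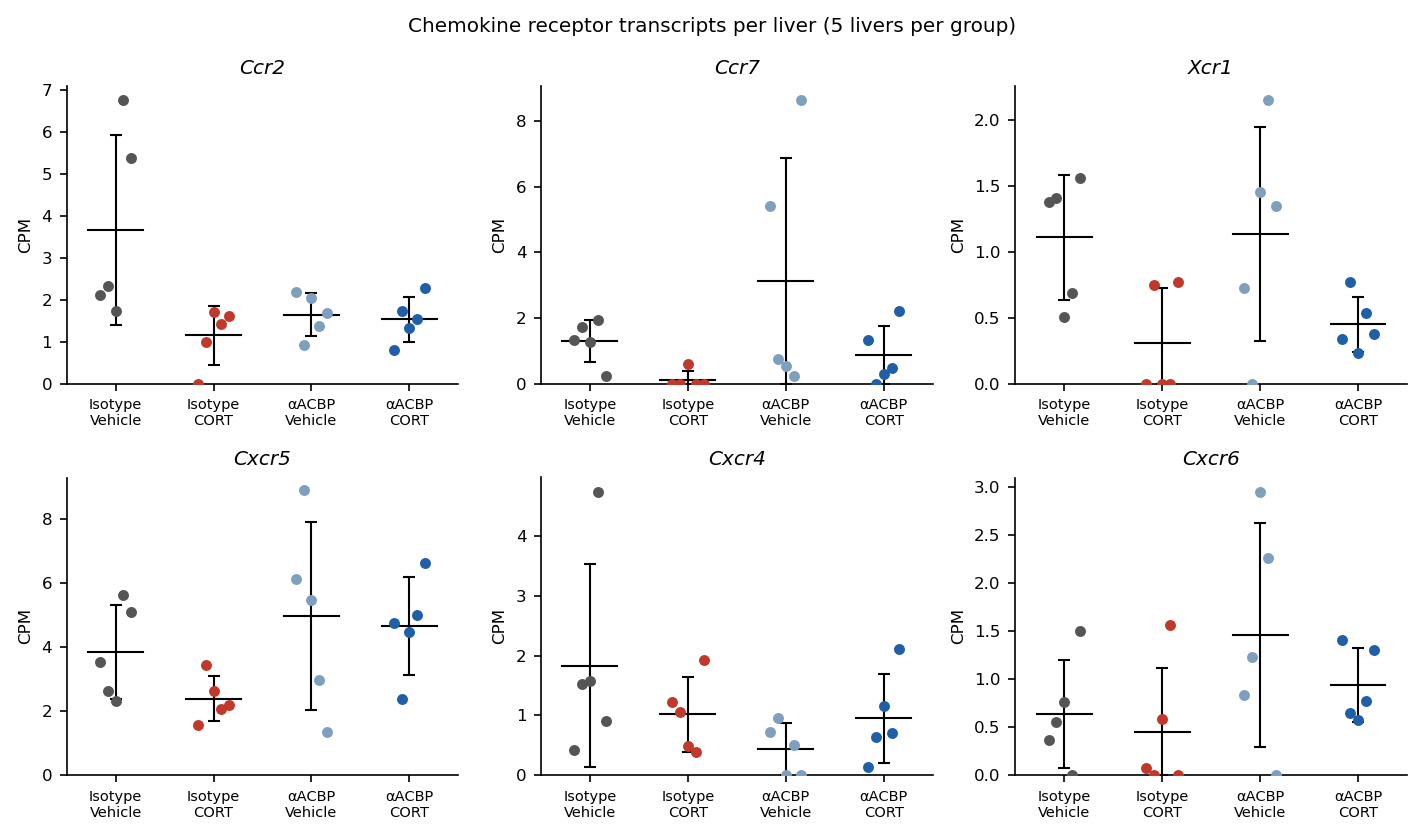
Level of receptor transcripts in each liver, in CPM, by group, with 1 point per liver, the group mean as a line and the SD as a whisker (its lower end cut at 0). The Isotype + CORT livers lie at 0 to 1.71 CPM for Ccr2, below all Isotype + Vehicle livers (1.72 to 6.76 CPM), and 4 of the 5 have no Ccr7 counts.

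Cxcl12 and Ccl27a, the most abundant ligands per length, did not share the lower levels. Cxcl12 was at 332, 275, 232, 168 and 295 CPM in Isotype + Vehicle and 291, 237, 248, 343 and 414 CPM in Isotype + CORT livers. The values were 163, 162, 182, 202 and 182 CPM in αACBP + Vehicle and 323, 278, 235, 276 and 182 CPM in αACBP + CORT livers. Its log2 fold change was 0.24 ± 0.19 (SE; adjusted p = 0.639, edgeR) with CORT under isotype and -0.25 ± 0.19 (adjusted p = 0.685) for αACBP under CORT, and the group that stood out low was αACBP + Vehicle. Ccl27a was at 32.1, 27.3, 30.9, 32.6 and 27.1 CPM in Isotype + Vehicle and 40.5, 43.3, 38.4, 34.8 and 24.2 CPM in Isotype + CORT livers. The values were 40.5, 41.1, 36.2, 48.4 and 46.3 CPM in αACBP + Vehicle and 33.3, 28, 57.7, 33.9 and 36.2 CPM in αACBP + CORT livers. The groups of the 2 main comparisons overlapped, with log2 fold changes of 0.27 ± 0.18 (SE; adjusted p = 0.534) for CORT under isotype and 0.06 ± 0.18 (adjusted p = 0.961) for αACBP under CORT. The direction of the second turned in limma voom (-0.02). Ccl27a lies opposite Il11ra1, whose log2 fold change with CORT under isotype was -0.86 (adjusted p = 0.00786), and 26.4% of its 100-base words recur elsewhere in the transcripts compared. Cxcr4, the receptor of Cxcl12, was at 0.421, 1.53, 1.57, 4.75 and 0.898 CPM in Isotype + Vehicle and 1.23, 1.05, 0.48, 0.391 and 1.93 CPM in Isotype + CORT livers. The values were 0.725, 0.963, 0, 0.495 and 0 CPM in αACBP + Vehicle and 0.134, 0.643, 1.15, 0.709 and 2.11 CPM in αACBP + CORT livers. All groups overlapped, with log2 fold changes of -0.85 ± 1.04 (SE; adjusted p = 0.804) for CORT under isotype and -0.10 ± 1.04 (adjusted p = 0.99) for αACBP under CORT, the sign of which turned when single livers were left out.

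Ccl9, a CCR1 ligand made by mouse macrophages, was at 115, 69.6, 75.5, 48.9 and 96.6 CPM in Isotype + Vehicle and 40.3, 49.7, 39.1, 66.6 and 54.9 CPM in Isotype + CORT livers. The values were 31.5, 43.7, 70.2, 53.0 and 30.7 CPM in αACBP + Vehicle and 62.2, 72.6, 42.7, 52.6 and 65.6 CPM in αACBP + CORT livers. The 3 other groups all had means under that of Isotype + Vehicle (81.1 ± 25.3 SD, n = 5), and each overlapped it. With CORT under isotype the log2 fold change was -0.69 ± 0.23 (SE; adjusted p = 0.0943, edgeR; exact permutation p = 0.0397), short of the fold limit, and for αACBP under CORT it was 0.24 ± 0.23 (adjusted p = 0.779). Cxcl16, the membrane-bound ligand of CXCR6 that retains NK T cells in liver sinusoids, was at 8.12, 14.6, 11, 10.3 and 16.2 CPM in Isotype + Vehicle and 8.13, 5.75, 6.41, 4.69 and 9.47 CPM in Isotype + CORT livers. The values were 6.7, 10.4, 14.5, 11.4 and 8.49 CPM in αACBP + Vehicle and 6.78, 10.4, 6.6, 5.91 and 5.67 CPM in αACBP + CORT livers. Both CORT-treated groups were lower, with log2 fold changes of -0.81 ± 0.28 (SE; adjusted p = 0.112) under isotype and 0.04 ± 0.28 (adjusted p = 0.986) between the antibodies under CORT. Cxcl16 overlaps Zmynd15 on the opposite strand, whose log2 fold change with CORT under isotype was -0.83 (adjusted p = 0.0186), so the 2 genes cannot be told apart if strand was not used. The receptor Cxcr6 was at 0.361, 0.55, 0.761, 0 and 1.5 CPM in Isotype + Vehicle and 0.0683, 0, 0.587, 1.56 and 0 CPM in Isotype + CORT livers. The values were 0.837, 1.23, 2.95, 2.26 and 0 CPM in αACBP + Vehicle and 1.41, 0.643, 0.574, 0.768 and 1.3 CPM in αACBP + CORT livers. At this level the groups did not separate, and the log2 fold changes were -0.51 ± 1.25 (SE; adjusted p = 0.919) for CORT under isotype and 1.07 ± 1.26 (adjusted p = 0.84) for αACBP under CORT.

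The remaining tested members overlapped between groups. Cxcl1, which attracts neutrophils through CXCR2, had means of 16.9 ± 10.9 CPM in Isotype + Vehicle and 8.64 ± 4.26 CPM in Isotype + CORT livers (SD, n = 5 each). The means were 24.1 ± 23.6 CPM in αACBP + Vehicle and 10.7 ± 6.86 CPM in αACBP + CORT livers, with a spread as large as the differences (log2 fold change -0.97 ± 0.67 SE with CORT under isotype; adjusted p = 0.573, edgeR). Cxcr2 itself was below the filter with 85 counts over all livers, the highest total of any member too low to test. Ccl25, the CCR9 ligand, had means of 7.71 to 9.64 CPM, and Ccr9 had 0.481, 0.673, 0.152, 0 and 0.779 CPM in Isotype + Vehicle and 0, 0.15, 1.28, 0 and 0 CPM in Isotype + CORT livers. The values were 0, 0, 0.724, 0 and 0 CPM in αACBP + Vehicle and 0.0671, 0.129, 0.975, 0.827 and 0.81 CPM in αACBP + CORT livers. Ccr9 was thus detected in scattered livers of every group, and its log2 fold changes were -0.51 ± 1.60 (SE; adjusted p = 0.939) for CORT under isotype and 0.94 ± 1.60 (adjusted p = 0.907) for αACBP under CORT. Ccl6, a CCR1 ligand beside Ccl9 on chromosome 11, had means of 3.05 to 5.25 CPM, and the eosinophil attractant Ccl24 had means of 1.72 to 2.75 CPM. The membrane-bound Cx3cl1 had means of 0.32 to 0.698 CPM, and its receptor Cx3cr1, carried by monocytes and some macrophages, had means of 1.07 to 2.43 CPM. Cxcl14, an epithelial chemokine, was at 1.93, 0.795, 0.609, 0 and 0.779 CPM in Isotype + Vehicle and 0, 0, 0, 0.651 and 0 CPM in Isotype + CORT livers. The values were 0.502, 1.5, 0, 1.16 and 0 CPM in αACBP + Vehicle and 0.336, 0.193, 0, 0.355 and 2.11 CPM in αACBP + CORT livers. It was at 0 in several livers, with log2 fold changes of -2.61 ± 1.66 (SE; adjusted p = 0.5) for CORT under isotype and 2.17 ± 1.64 (adjusted p = 0.679) for αACBP under CORT. The second ranged from 0.75 to 6.40 when 1 liver was left out.

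Of the 28 members below the filter, 21 had counts in some liver and 9 of these had 30 or fewer counts in all. Those seen were the ligands Ccl7, Ccl8, Ccl11, Ccl12, Ccl17, Ccl19, Ccl21a, Ccl22, Ccl27b, Ccl28, Cxcl2, Cxcl5 and Xcl1 and the receptors Ccr1, Ccr3, Ccr4, Ccr6, Ccr8, Ccr10, Cxcr1 and Cxcr2. Ccl22, a dendritic cell product that attracts regulatory T cells, had 2, 7, 11, 39 and 0 counts in the Isotype + Vehicle livers and none in any Isotype + CORT liver. It had 0, 18, 3, 0 and 0 counts in αACBP + Vehicle and 4, 0, 0, 0 and 0 counts in αACBP + CORT livers. Other members had means that differed in the opposite direction, on counts from scattered livers. The means of Ccr1, Ccr6, Ccr10 and Ccl28 were 0.349, 0.363, 0.453 and 0.282 CPM in Isotype + CORT livers. In Isotype + Vehicle livers they were 0.0241, 0, 0.0602 and 0 CPM. The counts in the Isotype + CORT livers were 0, 0, 17, 0 and 13 for Ccr1 and 0, 0, 0, 14 and 14 for Ccr6. They were 0, 22, 0, 8 and 10 for Ccr10 and 0, 0, 24, 0 and 2 for Ccl28. At this depth a count of 0 in a liver allows a level of up to 0.145 to 0.205 CPM, depending on the liver, so these genes were not detectable rather than absent. Ccl19, Ccl21a, Ccl21b and Ccl27b share much of their sequence with copies elsewhere in the genome, so their counts are uncertain.

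The 4 further contrasts complete the design, and all share groups with the 2 above. For αACBP against isotype in vehicle-treated mice, 12 members were higher and 16 lower (median log2 fold change -0.15), beside 51.2% of all genes that were lower. No member passed both limits, which 1.30% of all genes passed (edgeR). Ccl9 passed the adjusted p (0.0338) at a log2 fold change of -0.82 ± 0.23 (SE), short of the fold limit, and without αACBP + Vehicle replicate 3 it passed both. An unadjusted p of 0.05 was reached by 1 member that was higher and 5 that were lower, beside 1670 and 1646 of the 16071 genes tested. Of these members Ccl3, Cxcl10 and Cxcl13 were lower past the fold limit, beside 3.34% of all genes in either direction. Neither DESeq2's Wald test nor limma voom called any member, beside 307 and 310 of all genes. For Cxcl10 every αACBP + Vehicle liver lay below every Isotype + Vehicle liver (log2 fold change -1.40 ± 0.66 SE; adjusted p = 0.219; exact permutation p = 0.00794), a separation seen in the lower direction for 3.63% of all genes. For Ccl27a every αACBP + Vehicle liver lay above (log2 fold change 0.50 ± 0.18 SE; adjusted p = 0.1; exact permutation p = 0.00794), as for 3.50% of all genes in the higher direction. Cxcl12 was lower with a log2 fold change of -0.55 ± 0.19 (SE; adjusted p = 0.0819).

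Within the αACBP-treated mice, CORT went with 12 higher and 16 lower members (median log2 fold change -0.08), beside 49.5% of all genes that were lower. None of the members passed both limits, beside 0.212% of all genes (edgeR). The unadjusted limits with the fold were also passed by 0 members, beside 2.46% of all genes. At an unadjusted p of 0.05 the 1 member was Cxcl12 (log2 fold change 0.54 ± 0.19 SE, adjusted p = 0.207, edgeR). At that p 1200 of the 16071 genes tested were higher and 841 lower. Cxcl9 had a log2 fold change of 0.83 in this contrast (adjusted p = 0.565). Between αACBP + CORT and Isotype + Vehicle livers 10 members were higher and 18 lower (median -0.23), beside 49.7% of all genes that were lower. None passed the adjusted limits (0.0684% of all genes did) or the unadjusted limits with the fold (1.39%). The 1 member at an unadjusted p of 0.05 was Cxcl16 (log2 fold change -0.77 ± 0.28 SE, adjusted p = 0.372, edgeR). At that p 721 of the 16071 genes tested were higher and 499 lower. DESeq2's Wald test and limma voom called no member in either contrast. Of all genes they called 117 and 155 for CORT under αACBP, and 57 and 150 for αACBP + CORT against Isotype + Vehicle.

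The interaction term tests whether the CORT difference itself depended on the antibody. It had a positive sign for 21 of 28 members (median 0.66), beside 8441 of the 16071 genes tested (median 0.0331). The median over the members was 1.85 in limma voom and 1.12 with a replicate block. It was 0.24 over the 9 members with at least 10 counts in every liver, of which 5 were positive. By edgeR no member passed both limits, beside 0.143% of all genes, and 5 did so at the unadjusted p, beside 4.92% of all genes in either direction. Among them were Ccl9 (1.06 ± 0.32 SE on the log2 scale; adjusted p = 0.163), Cxcl9 (2.57 ± 0.78; adjusted p = 0.187), Cxcl13 (4.74 ± 1.49; adjusted p = 0.209) and Cxcl10 (2.46 ± 0.93; adjusted p = 0.29). Of the members, DESeq2's Wald test and limma voom each called Cxcl9 alone, with adjusted p of 0.0401 and 0.0304. Of the 16071 genes tested they called 177 and 49.

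Other genes of chemokine biology were given by list, 60 in all, of which 55 were tested. With CORT under isotype 42 of the 55 were lower (median log2 fold change -0.44), beside 49.8% of all genes, and 6 fell past both limits with 0 that rose, beside 1.94% of all genes called. Of the 22 tested genes of receptor signalling 3 fell, namely Dock2, which drives lymphocyte migration downstream of the receptors (log2 fold change -2.01; adjusted p = 0.0166), Prex1, a Rac activator (-1.26; adjusted p = 0.0178), and Fermt3, which activates integrins in blood cells (-1.38; adjusted p = 0.00085). Of the 10 tested integrins and selectins of leukocyte adhesion 2 fell, Itgal (log2 fold change -1.32; adjusted p = 0.0095) and Itgb2 (-1.39; adjusted p = 0.0228), which together form the integrin LFA-1. Of the 12 tested inducers of chemokine transcription 1 fell, the interferon regulatory factor Irf7 (log2 fold change -1.24; adjusted p = 0.00477), while Irf1 (-0.44; adjusted p = 0.38) did not pass. None of the 5 atypical and related receptors, the 4 genes of chemokine processing, or Pf4 and Ppbp passed.

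With αACBP under CORT 41 of the same 55 genes were higher (median log2 fold change 0.33), beside 51.0% of all genes, and 3 rose past both limits with 0 that fell, beside 0.597% of all genes called. They were Fermt3 (log2 fold change 1.38; adjusted p = 0.00275), Itgal (1.25; adjusted p = 0.0277) and Irf7 (1.49; adjusted p = 0.00275), each of which had fallen with CORT in the comparison that shares the Isotype + CORT livers. Dock2 (log2 fold change 1.40; adjusted p = 0.161), Prex1 (0.73; adjusted p = 0.291) and Itgb2 (1.19; adjusted p = 0.0913) did not pass. None of the 55 was called for CORT under αACBP or for αACBP under vehicle. Ifng, which encodes the main inducer of Cxcl9, was too low to test, at a mean of 0.0614 CPM.

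Marker transcripts of macrophages, leukocytes in general and T and NK cells were mostly lower in Isotype + CORT livers than in the other groups. B cell sums were mostly low in both CORT-treated groups, and monocyte and neutrophil sums overlapped between all groups. Kupffer cell and macrophage markers (Clec4f, Vsig4, Timd4, Cd5l, Marco, Adgre1 and Csf1r) summed to 317 to 619 CPM in Isotype + Vehicle, 117 to 352 CPM in Isotype + CORT, 437 to 755 CPM in αACBP + Vehicle and 429 to 581 CPM in αACBP + CORT livers. With CORT under isotype 7 of 7 were lower and 5 fell (Clec4f, Vsig4, Timd4, Cd5l and Csf1r, with log2 fold changes from -1.61 to -1.01), and with αACBP under CORT 7 of 7 were higher and 2 rose, namely Clec4f (log2 fold change 1.42) and Csf1r (1.07). Of all tested genes 49.8% were lower and 1.94% called in the first comparison, and 51.0% were higher and 0.597% called in the second. General leukocyte markers (Ptprc, Cd53, Laptm5 and Coro1a) summed to 46.8 to 80.4, 18 to 44.4, 37.3 to 82.7 and 47.3 to 60.4 CPM in the same order of groups. Ptprc, which encodes CD45, fell with CORT (log2 fold change -1.53; adjusted p = 0.000936) and rose with αACBP (1.18; adjusted p = 0.0173). The 8 T and NK cell markers summed to 8.85 to 16.3, 0.58 to 5.34, 5.52 to 12.5 and 4.82 to 8.69 CPM, with 6 of 6 tested lower in the first comparison and higher in the second, none of them called. Ncr1 was at 0 in every Isotype + CORT liver. Sums of neutrophil markers were 2.17 to 8.98, 0.717 to 4.25, 2.19 to 4.88 and 1.78 to 4.12 CPM, with Ly6g at 0 in every group but αACBP + CORT. Sums of sinusoidal endothelium markers were 166 to 235, 168 to 203, 175 to 288 and 151 to 225 CPM. With CORT under isotype 4 of 5 endothelial, 4 of 4 stellate cell and 3 of 4 cholangiocyte markers were also lower. With αACBP under CORT 2 of 5, 1 of 4 and 1 of 4 of them were higher, and none was called in either comparison. The part of these cell types in the levels of the chemokine and receptor genes was not tested.

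**Figure D5:**
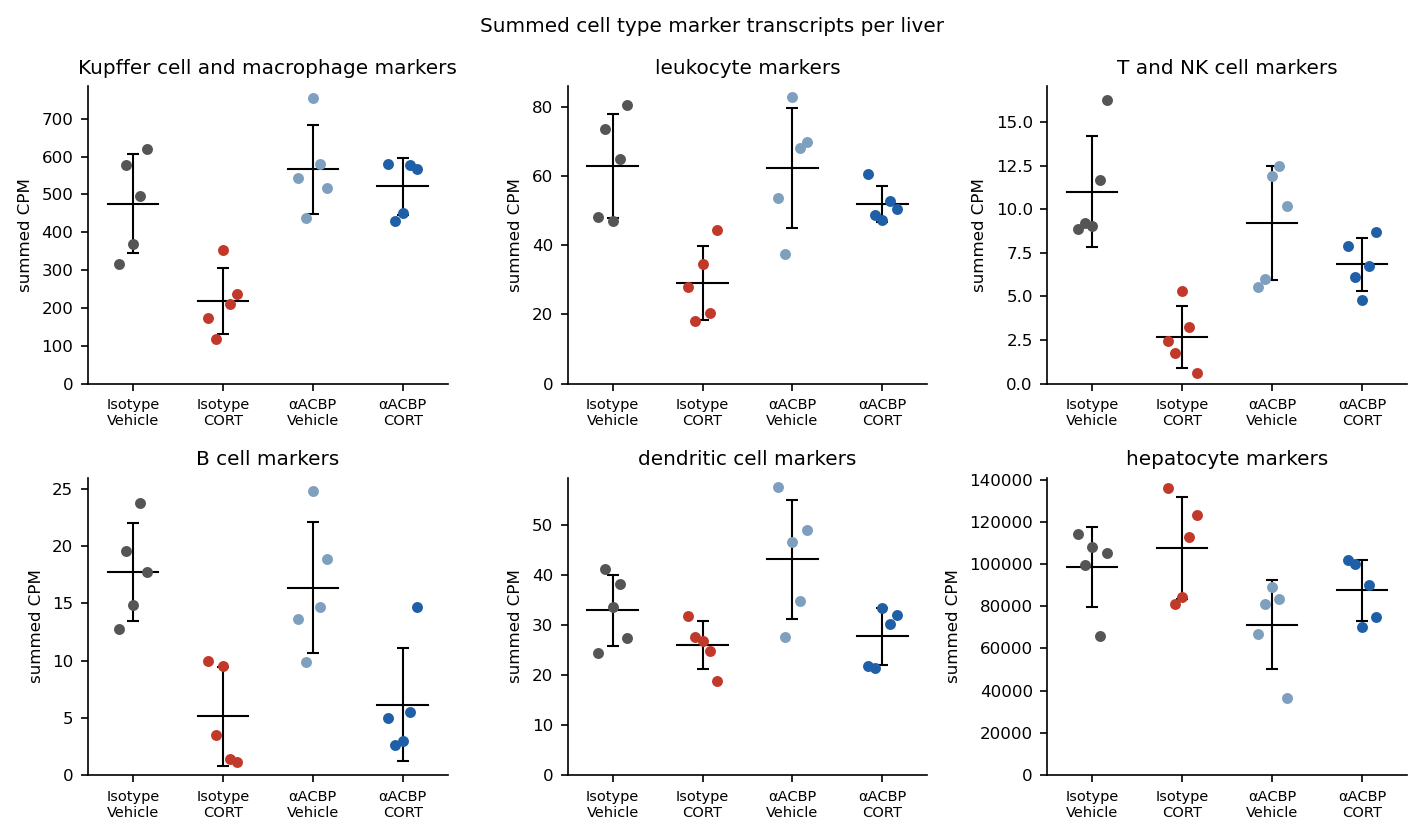
Summed transcript level of cell type markers in each liver, in CPM, by group, with 1 point per liver, the group mean as a line and the SD as a whisker. Kupffer cell and macrophage sums lie at 117 to 352 CPM in Isotype + CORT and at 429 to 581 CPM in αACBP + CORT livers, and T and NK cell sums at 0.58 to 5.34 CPM and 4.82 to 8.69 CPM.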

How the data were processed

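RNA of 20 mouse livers was sequenced in read pairs by the authors, who aligned them with HISAT2 and counted them per gene with HTSeq-count in union mode, non-unique features included. The deposited values are raw counts per gene and liver. The study's methods name GRCm39 and the submitters' processing notes name mm10, so gene positions here come from GENCODE M39 on GRCm39, which holds 91.4% of the 48440 identifiers; the annotation release and strand setting are not given in the sources used here. The closing lines of the table for pairs on no gene were left out of library sizes (42.3 to 45.2% without a feature, 5.92 to 10.6% not uniquely aligned), which left 36.6 to 40.4% of pairs on genes. No column of per-liver values was left unassigned, and livers were grouped by their labels, each being a separate mouse.

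From the counts, edgeR 4.0.16 (R 4.3.3) fitted 1 quasi-likelihood model of the 4 groups to all 20 livers with TMM scaling and its filter by group, and p-values were adjusted over all 16071 genes tested by the Benjamini-Hochberg method. Genes were called where the adjusted p did not exceed 0.05 and the log2 fold change was 1 or more in size, which are the study's limits applied to adjusted p. Exact two-sided permutation tests compared mean log2(CPM + 0.5) of 5 against 5 livers. Alternatives were DESeq2 1.42.0 size factors and Wald test, limma 3.58.1 voom, library sizes without the 20 most abundant genes, other filters (at least 1 count in any liver, at least 10 counts in every liver), only the groups compared, a replicate block, other call limits and leaving out each liver. The scripts were tested on simulated data.

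Every tested member was named with its levels. Full statistics went to members called in any comparison, to the 5 ligands and 5 receptors of smallest p in the 2 comparisons with Isotype + CORT, and to the 3 ligands and 3 receptors of highest level per length, 17 members by this rule. The members, the pathway and marker lists and the tests were chosen with earlier results of these data known. The values of Ccl7, Ccl22, Ccl28, Ccr1, Ccr6 and Ccr10 and the neighbouring genes on the opposite strand were picked out after they were seen. Promoters were held for 41 members, and motifs were searched in 250 bases before the start. The precision is set by counting at low levels and by the spread between mice: the biological coefficient of variation was 0.214 to 1.77 (median 0.736) over tested members, beside 0.481 for all genes in common. Detection limits cover counting error only. A few genes that enter the counts and sums are not reported here by name.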

Additional observations from a re-analysis of the deposited data

Results flagged for a closer look

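In each group of 5 livers the highest and lowest value of every member with full statistics was compared with the rest by Dixon's gap ratio. Of 68 such groups 8 held a liver far from the others. For normally distributed values chance gives about 3.4, a figure that does not hold for groups with several livers at 0, so the 2 numbers cannot be compared. Most of the flagged groups are of genes at the detection limit, where 1 liver had counts and the others few or none. Ccr7 was at 0.587 CPM in Isotype + CORT replicate 3 and at 0 in the other 4 livers of that group. Ccr9 was at 1.28 CPM in the same liver, beside 0.15 CPM or less in the others, and at 0.724 CPM in αACBP + Vehicle replicate 3, beside 0 in the others. Cxcl14 was at 0.651 CPM in Isotype + CORT replicate 4, with 0 in the rest, and at 2.11 CPM in αACBP + CORT replicate 5, with 0.355 CPM or less in the rest. Cxcr4 was at 4.75 CPM in Isotype + Vehicle replicate 4, where the next liver had 1.57 CPM.

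The other 2 values belong to well-expressed ligands. Ccl27a reached 57.7 CPM in αACBP + CORT replicate 3, beside 36.2 CPM in the next liver. Cxcl16 reached 10.4 CPM in αACBP + CORT replicate 2, beside 6.78 CPM in the next. What sets these livers apart was not tested.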

How the results depend on the processing

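The replicate numbers did not pair the livers: same-numbered livers of different groups had correlated deviations from -0.139 to 0.138 (30 pairs), and 2 of 20 livers correlated best with their own number. With the replicate number as a block, 0 members were called for αACBP against isotype under CORT (Cxcl9 at an adjusted p of 0.0754), and no other call changed.

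For αACBP against isotype under CORT, where 1 member was called, 4 were called with unadjusted p, 0 with at least 1 count in any liver, 0 with at least 10 counts in every liver (where Cxcl9 was not tested), 0 with only the groups compared, and 0 to 2 when 1 liver was left out (Cxcl9 and Ccr7 without Isotype + CORT replicate 3). The adjusted p of Cxcl9 ranged from 0.000603 (DESeq2's Wald test) to 0.212 (only the groups compared) and its log2 fold change from 2.12 to 3.46. For CORT under isotype, where 0 were called, 7 were called with unadjusted p, 3 by DESeq2's Wald test, 1 by limma voom and 0 to 3 when 1 liver was left out. For αACBP under vehicle, 3 were called with unadjusted p, 1 (Ccl9) with no fold limit and 0 to 1 when 1 liver was left out. For the interaction, 5 were called with unadjusted p and 1 each by DESeq2's Wald test and limma voom. CORT under αACBP and αACBP + CORT against Isotype + Vehicle had 0 members called under every setting run.

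Of 35 single values recomputed, 25 kept their direction and their side of the limits throughout. The reversals concerned αACBP under CORT: Ccl27a turned to -0.0187 in limma voom and to between -0.14 and 0.15 when 1 liver was left out, and Cxcr4 to between -0.62 and 0.27 when 1 liver was left out. With at least 1 count in any liver, 32 of 49 members were lower with CORT under isotype and 14 higher. The lower ones were 21 of 31 ligands and 11 of 18 receptors, beside 10 of 10 receptors under the filter used. Over all genes, calls under these tools, filters and left-out livers ranged from 205 to 527 beside 312 for CORT under isotype, 27 to 211 beside 96 for αACBP under CORT, 5 to 155 beside 34 for CORT under αACBP, 87 to 343 beside 209 for αACBP under vehicle, 1 to 150 beside 11 for αACBP + CORT against Isotype + Vehicle and 6 to 177 beside 23 for the interaction. The interaction's median over all genes was 0.13 in limma voom and 0.13 with at least 1 count in any liver, beside 0.03. Over the members, the interaction's median of 0.66 ranged from 0.53 to 1.06 when 1 liver was left out (1.06 without Isotype + CORT replicate 5, 1.00 without replicate 3). The cause of these changes was not tested. Depth limits the 28 members below the filter.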
